A study of Mus musculus with 49 samples.

Results

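Liver labelled distant from tumors was compared with control liver in 14-week-old mice that differed in whether they carried a human MET transgene. The comparison took the 7 samples titled distant liver and the 7 titled FVB wild type at 14 weeks, 14 of the 49 samples of the series, and every probe set of the array was read in them. All 14 mice were of strain FVB by their labels. The 7 distant livers had the genotype LAP-tTA-Tre-c-Met, in which a liver-specific promoter (LAP) drives a tetracycline-controlled transactivator (tTA) and the transactivator drives human MET from a Tet-responsive promoter, and they came from mice that also gave a tissue labelled adjacent and 2 tumors each. The 7 control livers were labelled WT, whereas the methods of the study describe the control strain as carrying copies of LAP-tTa. Carriage of MET and carriage of LAP-tTA therefore cannot be told apart by the labels, and mean levels in the 7 LAP-tTA livers of 7 weeks are given with the leading genes. "Distant" was read from the abbreviation in the titles, and the labels give these livers the disease state normal. Nothing in the labels gives the sex of a mouse, the time of day at which it was killed, or how far a piece lay from a tumor.

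MET is the receptor for hepatocyte growth factor and signals through the MAP kinase cascade to growth and survival genes. The liver lobule is divided into zones: hepatocytes around the central vein, kept in that state by WNT ligands and R-spondins from endothelium acting through beta-catenin, make glutamine and hold many cytochromes P450, while those around the portal tract make glucose and urea.

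The values were array intensities, so no depth exists and the number of arrays limits the precision. A level below is the log2 of the deposited intensity, a difference is distant minus control liver on that scale, and a gene was called at a limma adjusted p under 0.05 over 43681 probe sets. The median log2 intensity of a liver lay between −3.37 and −3.22 in controls and between −3.35 and −3.28 in distant livers. No background level was used here, so for genes near or under those medians a fold is a ratio of intensities and not of RNA amounts. The 5 hepatocyte markers Alb, Ttr, Apoa1, Serpina1a and Hnf4a averaged 5.42 to 5.61 in control and 5.41 to 5.67 in distant livers, with 0 of 5 called. In this bulk tissue, fewer cells of a type and less RNA per cell cannot be told apart.

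Livers within each group stood apart in ways that the labels do not give. Xist, the transcript of the inactive X chromosome, lay at 1.14 to 1.79 in control livers 1 and 2 and distant livers 3, 4, 5 and 6, and at −5.30 to −4.57 in the other 8, which carried the Y-linked Eif2s3y at 0.06 to 0.96. The clock gene Arntl went with it, at −3.34 to −2.49 in the 6 livers with Xist and −1.47 to −0.06 in the other 8. The component that separated these livers held 38.09% of the variance. Control liver 5, and less so control liver 7, held genes of the acinar pancreas: the carboxypeptidase Cpa1 was at 2.97 and −0.71 there and at −2.85 to −2.11 in the other 12 livers. All 7 LAP-tTA livers of 7 weeks, which are set beside these groups below, had Y-linked signal (Xist at −5.13 to −4.69, Eif2s3y at 0.55 to 0.90). Groups by Xist are defined from the data and are not groups of the study. Counts within them are given for most lists, and the closing section counts the named genes whose call was lost there or without control livers 5 and 7.

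Mouse Met, read by 2 probe sets, checks the labels only in part, since it is not known whether either reads the human transcript. At the brighter set control livers were at 2.21 ± 0.13 (SD, n = 7) and distant livers at 2.25 ± 0.13 (SD, n = 7), which differed by 0.04 (exact permutation test, two-sided, p = 0.564, adjusted over both sets 0.564). At the dimmer set the levels were 0.31 ± 0.11 (SD, n = 7) and 0.63 ± 0.12 (SD, n = 7) and differed by 0.31 (exact permutation test, p = 0.0017, adjusted 0.0035). Ranges overlapped there, at 0.13 to 0.51 in control and 0.45 to 0.76 in distant livers. Hgfac, the protease that activates hepatocyte growth factor, rose by 0.62 (adjusted p = 0.0059, but 0.143 within the livers with Xist signal). Read at the brightest probe set, Hgfac was the only 1 of 11 genes of the receptor, its ligand and its activators that was called (9.09%, against 3.33% of all named genes). The dimmer set of Met was also called by limma (adjusted p = 0.014). Hgf itself was at −1.69 to −1.28 in control and −1.92 to −1.35 in distant livers (difference −0.19, adjusted p = 0.276).

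Distant liver differed from control liver at 2212 of 43681 probe sets (5.06%), 1077 higher and 1135 lower. Among the 21517 named genes, each read at its brightest probe set, 1471 were called (6.84%), 716 higher (3.33%) and 755 lower (3.51%). The 7 and 7 values did not overlap at 593 named genes (2.76%; 1.38% in either direction), and 547 of them were called. Over all named genes the median difference was −0.01. With the Xist state as a term, 2314 probe sets were called, 1912 of them among the 2212, and 7.13% of named genes (3.44% higher, 3.69% lower). Within the livers with Xist signal (4 distant, 2 control) 1047 probe sets were called, and 3.39% of named genes (1.65% higher, 1.74% lower). Within the other livers (3 distant, 5 control) 871 were called, and 2.80% of named genes (1.45% higher, 1.35% lower). Without control livers 5 and 7 the count was 1307, with 4.13% of named genes (1.93% higher, 2.20% lower). Of the 2212 calls, 2209 had the same direction in both Xist states, which the choice of probe sets called in these same livers favors. Of the 130 called genes named here, 71 were called within the livers with Xist signal, 93 within the others and 107 without control livers 5 and 7.

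The genes that rose most included secreted peptides, a granule protease and a steroid enzyme. Tff3, a trefoil peptide of mucosal surfaces, ran from −2.57 to −1.51 (median −1.94) in control and from 1.32 to 3.77 (median 2.66) in distant livers. Every distant liver lay above every control liver, and the mean was 25.6-fold higher (difference 4.68, SE 0.29, adjusted p = 2.48e-08). In the LAP-tTA livers of 7 weeks Tff3 was at −1.15 on average, nearer to control than to distant liver, and in the tumors of the same mice at 0.20, below distant liver (paired limma adjusted p = 0.001). Prtn3, a serine protease of neutrophil granules, ran from −3.98 to −2.92 (median −3.62) in control and from −1.43 to 2.75 (median 1.68) in distant livers (difference 4.57, SE 0.52, adjusted p = 3.77e-05). Ifi27l2b, of an interferon-inducible family, ran from −4.18 to −2.24 (median −3.20) in control and from −0.68 to 2.54 (median 1.83) in distant livers (difference 4.45, SE 0.43, adjusted p = 5.58e-06). Neither pair of groups overlapped, and distant livers 2 and 7 were the lowest distant livers for Prtn3, at −0.71 and −1.43. Cyp17a1, the 17-alpha-hydroxylase of steroid synthesis, ran from −2.35 to −0.16 (median −1.74) in control and from 1.56 to 4.16 (median 3.20) in distant livers (difference 4.23, SE 0.44, adjusted p = 1.11e-05). It averaged 0.91 in LAP-tTA livers, between the groups, and −0.29 in tumors.

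**Figure D1:**
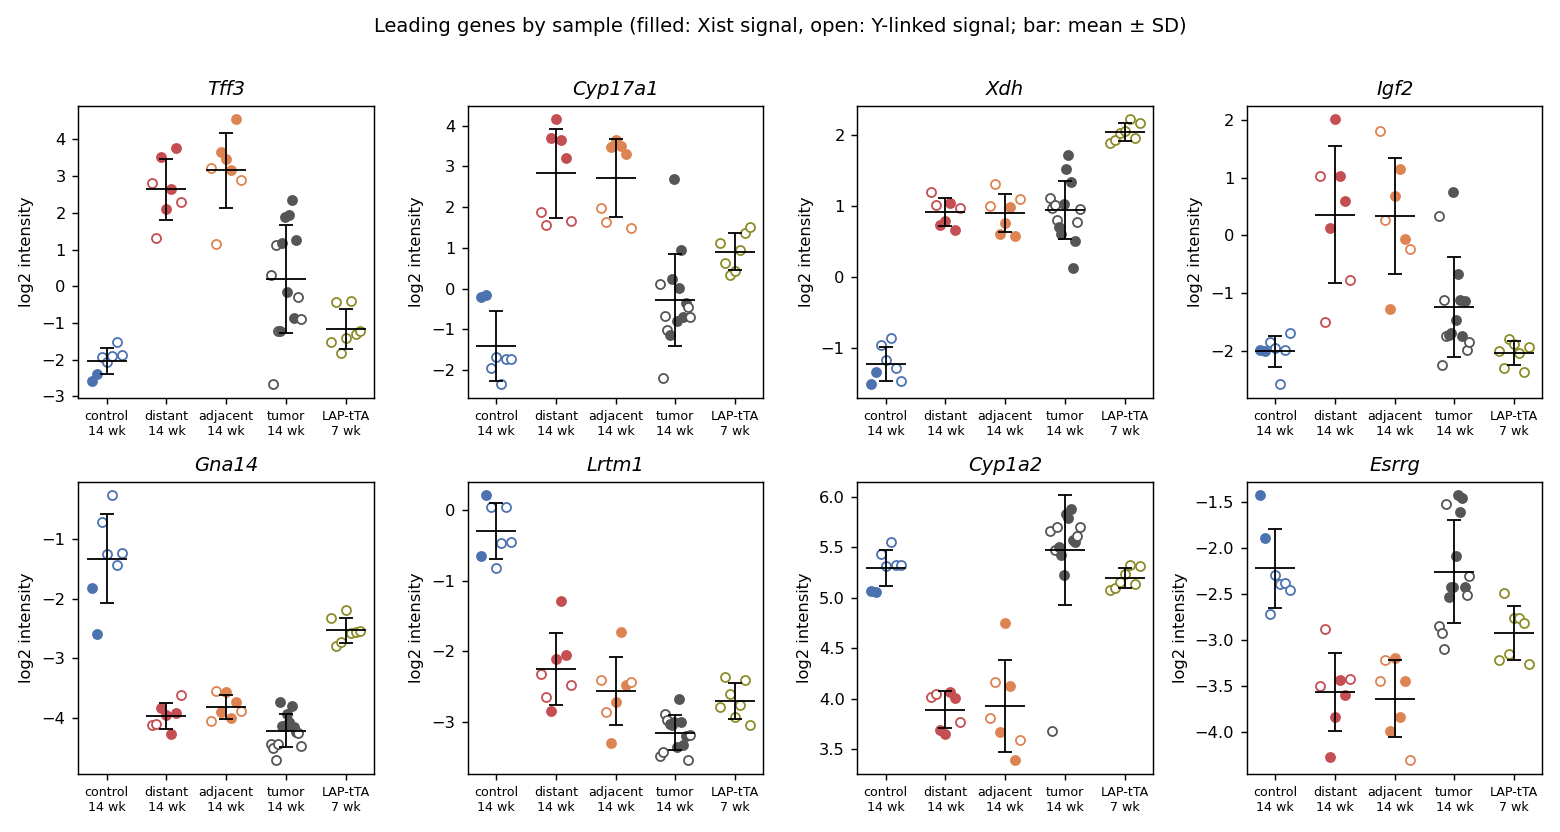
Log2 intensity of 8 leading genes in each sample of 5 groups, with control, distant, adjacent and tumor samples at 14 weeks and LAP-tTA livers at 7 weeks. Filled points carry Xist signal and open points Y-linked signal, and bars are mean ± SD. For Tff3, control livers sit between −2.57 and −1.51 and distant livers between 1.32 and 3.77, and for Cyp1a2 between 5.06 and 5.55 against 3.65 and 4.07.

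The other 11 of the 15 largest increases had differences from 2.08 (Itih5) to 2.99 (Cyb561). Xdh, the oxidase that ends purine breakdown, had the smallest adjusted p and ran from −1.52 to −0.86 (median −1.29) in control and from 0.66 to 1.20 (median 0.97) in distant livers (difference 2.15, SE 0.11, adjusted p = 6.75e-09). The groups lay far apart, but Xdh was at 2.05 in LAP-tTA livers, above every distant liver. A dim probe set of Xdh was called in the opposite direction (−0.60, adjusted p = 0.0071) and another in the same (1.95). Cyp3a13, a drug-metabolizing P450, ran from 0.25 to 0.51 (median 0.34) in control and from 2.06 to 3.11 (median 2.64) in distant livers (difference 2.27, SE 0.12, adjusted p = 6.93e-09) and was at 2.60 in LAP-tTA livers. Igf2, the fetal growth factor, ran from −2.58 to −1.70 (median −1.98) in control and from −1.5 to 2.01 (median 0.59) in distant livers (difference 2.37, SE 0.38, adjusted p = 0.001). Its distant livers spread widely, with liver 4 the highest and liver 2 the lowest, and LAP-tTA livers averaged −2.04. Akr1c18, which inactivates progesterone, rose by 2.75, Dntt, the polymerase that adds bases to antigen receptor joints, by 2.57, and Pnpla5, a lipase of lipid droplets, by 2.16. Cyb561, an electron carrier of membranes, rose by 2.99, Osbpl3, an oxysterol-binding protein, by 2.31, Trim12a by 2.32, Wfdc2, a secreted protease inhibitor, by 2.09, and Itih5, an inter-alpha-trypsin inhibitor chain, by 2.08.

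The largest decreases included receptors, transporters and signaling genes. Gna14, a G protein subunit of the Gq class, ran from −2.59 to −0.26 (median −1.24) in control and from −4.27 to −3.62 (median −3.96) in distant livers (difference −2.65, SE 0.25, adjusted p = 4.41e-06). All 7 distant livers lay lower than all control livers, and LAP-tTA livers, at −2.53 on average, lay between. Npr2, the receptor for C-type natriuretic peptide, ran from 0.30 to 1.12 (median 0.84) in control and from −1.78 to −0.78 (median −1.52) in distant livers (difference −2.25, SE 0.15, adjusted p = 4.87e-08). Serpine2, an inhibitor of thrombin and plasminogen activators, fell by 2.37, Sult5a1, a sulfotransferase, by 2.24, and Gm6614 by 2.25. Slc15a2, a peptide transporter, fell by 1.94, Lrtm1 by 1.95, Smad9, which carries BMP signals, by 1.80, and Celf2, an RNA-binding splicing regulator, by 1.56. Esrrg, an orphan nuclear receptor of energy metabolism, ran from −2.72 to −1.43 (median −2.38) in control and from −4.27 to −2.88 (median −3.50) in distant livers (difference −1.34, SE 0.19, adjusted p = 0.000359), and the groups did not overlap. Rfx4, a transcription factor, fell by 1.5, Rmdn2 by 1.38 and Plet1 by 1.37.

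All 30 leading genes were called with the Xist state as a term and without control livers 5 and 7, 29 were called within the livers with Xist signal and 28 within the others. Those fits reused the livers in which the genes were chosen, which favors a kept call. The mean of the leading genes in adjacent liver lay nearer to distant than to control liver for 30 of 30. Their mean in the 7-week LAP-tTA livers lay nearer to distant liver for 15 of 30, among them Xdh, Cyp3a13 and Lrtm1, and nearer to control liver for the other 15, among them Tff3, Prtn3 and Igf2. For 6 leading genes not yet given there, the LAP-tTA mean reached or lay close to the distant mean: Trim12a was at −1.99 against −2.84 in distant liver, Gm6614 at −2.29 against −2.17, Slc15a2 at −3.20 against −2.46, Lrtm1 at −2.70 against −2.25, Rfx4 at −4.76 against −4.77 and Plet1 at −3.48 against −2.57. Those livers lay between the groups for Cyb561 (−0.74), Npr2 (−0.58), Sult5a1 (0.09), Smad9 (−0.93), Rmdn2 (0.21) and Esrrg (−2.92), though nearer to distant liver. They lay between the groups but nearer to control liver for Prtn3 (−3.11), Ifi27l2b (−2.27), Akr1c18 (−2.43), Dntt (−2.66), Osbpl3 (−2.93), Pnpla5 (−3.09), Wfdc2 (−1.74), Itih5 (−1.49), Serpine2 (−1.53), Celf2 (−0.88), Oat (4.08) and Cyp1a2 (5.20). The distant and control means mix Xist states, whereas all LAP-tTA livers had Y-linked signal. Against livers with that signal alone, the LAP-tTA means of Itih5 (control −2.50, distant −1.01) and Gna14 (−0.97 and −3.95) lay nearer to distant liver instead. Dntt then lay about midway (−3.40 and −1.91), and the other leading genes kept their side.

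Of 16 genes of the pericentral zone and of beta-catenin signaling, 13 fell and 0 rose, with a median difference of −0.65, against −0.01 over all genes. All 16 had differences below 0, and Nkd1 (−0.37, adjusted p = 0.0522), Rhbg (−0.32) and Tcf7 (−0.21) were not called. With the Xist state as a term 15 of 16 were lower, within the livers with Xist signal 10 and within the others 10. Glul, the glutamine synthetase of the last hepatocytes before the central vein, ran from 4.12 to 4.48 (median 4.31) in control and from 2.80 to 3.52 (median 2.94) in distant livers (difference −1.24, SE 0.11, adjusted p = 1.4e-06). Every distant liver was lower than every control liver, and LAP-tTA livers averaged 4.30, close to control. Oat, ornithine aminotransferase, ran from 4.09 to 4.73 (median 4.28) in control and from 1.55 to 4.02 (median 2.77) in distant livers (difference −1.54, SE 0.25, adjusted p = 0.000983). Distant liver 5 stood near the controls, at 4.02, and distant liver 7 was lowest.

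Among the P450 enzymes of this zone, Cyp1a2, which metabolizes caffeine and arylamines, ran from 5.06 to 5.55 (median 5.33) in control and from 3.65 to 4.07 (median 4.01) in distant livers (difference −1.40, SE 0.09, adjusted p = 4.87e-08). Cyp2e1, which oxidizes ethanol, fell by less, from 6.22 to 6.41 (median 6.32) in control and from 5.69 to 6.09 (median 5.82) in distant livers (difference −0.44, SE 0.07, adjusted p = 0.001). Neither gene's groups overlapped. Slc1a2, a glutamate transporter, ran from 1.16 to 1.55 (median 1.39) in control and from −2.71 to 1.46 (median −2.10) in distant livers (difference −2.63, SE 0.55, adjusted p = 0.0086). In 5 distant livers it was at −2.71 to −1.83, while distant livers 4 and 5, at 1.46 and 1.08, lay within or near the control range. Tbx3, a transcription factor induced by beta-catenin, ran from −1.97 to −1.07 (median −1.10) in control and from −2.90 to −2.04 (median −2.47) in distant livers (difference −1.21, SE 0.15, adjusted p = 8.43e-05), and control liver 7 was the lowest control. Lect2, a secreted hepatocyte protein and beta-catenin target, fell by 0.92, Lgr5, the R-spondin receptor, by 0.92, Axin2, which feeds back on WNT signaling, by 0.71, and Notum, a secreted enzyme that inactivates WNT, by 0.59. Rnf43 and Znrf3, ligases that remove WNT receptors, fell by 0.52 and by 0.39. Axin2 and Lgr5 were not called within the livers with Xist signal (adjusted p = 0.16 and 0.174). In the tumors of the same mice these genes lay above distant liver: Glul averaged 5.85, Lect2 6.04, Axin2 1.76 and Lgr5 1.38, against distant medians of 2.94, 3.07, −1.99 and −2.60 (paired limma adjusted p at most 1.17e-07 for these 4).

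The promoter letters that TCF factors, the DNA-binding partners of beta-catenin, are known to bind were looked for beside these values. The letters ATCAAAG or TTCAAAG on either strand stood within 250 bases before the start of 2333 of 27025 RefSeq genes (8.63%). Of the 16 list members 11 had a RefSeq window, and 5 of these held the letters. The windows around these 5 matches follow, from RefSeq in build GRCm38.p6 and in the direction of the gene, with the motif in capitals. The motif was chosen from 11 sought because of the pathway, and a match in a window is not a binding site. It was not the most frequent: the antioxidant response motif, also sought, stood before 6 of the same 11 genes and 27.3% of all RefSeq genes. Sp5, which held it 104 bases before its start, is a target of WNT signaling that ran from −2.67 to −2.05 (median −2.52) in control and from −3.17 to −2.71 (median −3.06) in distant livers (difference −0.49, SE 0.10, adjusted p = 0.0078) with no overlap.
Sp5, chr2:70474789-70474855, plus strand: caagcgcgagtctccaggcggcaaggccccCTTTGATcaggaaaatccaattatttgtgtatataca
Slc1a2, chr2:102706201-102706267, plus strand: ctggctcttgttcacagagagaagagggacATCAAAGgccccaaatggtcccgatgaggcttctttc
Cyp2e1, chr7:140763654-140763720, plus strand: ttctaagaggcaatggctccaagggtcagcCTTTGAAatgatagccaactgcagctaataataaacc
Cyp1a2, chr9:57683863-57683905, minus strand: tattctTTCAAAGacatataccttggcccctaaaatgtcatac
Lect2, chr13:56548539-56548600, minus strand: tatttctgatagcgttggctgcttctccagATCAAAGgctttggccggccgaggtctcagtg

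Of 11 periportal genes measured, 3 rose (27.3%, against 3.33% of all named genes) and 0 fell. Pck1, the rate-limiting enzyme of glucose synthesis, ran from 3.02 to 3.86 (median 3.58) in control and from 4.38 to 4.86 (median 4.74) in distant livers (difference 1.19, SE 0.11, adjusted p = 5.57e-06), and every distant liver was above every control liver. It averaged 4.47 in LAP-tTA livers, within the distant range. Sds, serine dehydratase, rose by 0.68 (difference 0.13 within the livers with Xist signal and 1.09 within the others), and Hsd17b13, a lipid droplet enzyme, by 0.36. Of the 20 endothelial genes measured, 1 rose and 2 fell, with a median difference of −0.06. These are 5% and 10%, near the 3.33% and 3.51% of all named genes for the former. Rspo3, the R-spondin of the central vein, ran from −0.92 to −0.33 (median −0.77) in control and from −1.56 to −1.18 (median −1.27) in distant livers (difference −0.62, SE 0.09, adjusted p = 0.000355), with no overlap. Wnt2, a WNT of sinusoidal and central endothelium, fell by 0.38 (adjusted p = 0.046), a call lost when any of 11 of the 14 livers was left out (adjusted p up to 0.102). Lyve1, a hyaluronan receptor of sinusoidal endothelium, rose by 0.72. Of 4 defining sinusoidal markers Lyve1 was the only one called, and their mean ran from 0.80 to 1.17 in control and from 1.01 to 1.32 in distant livers.

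**Figure D2:**
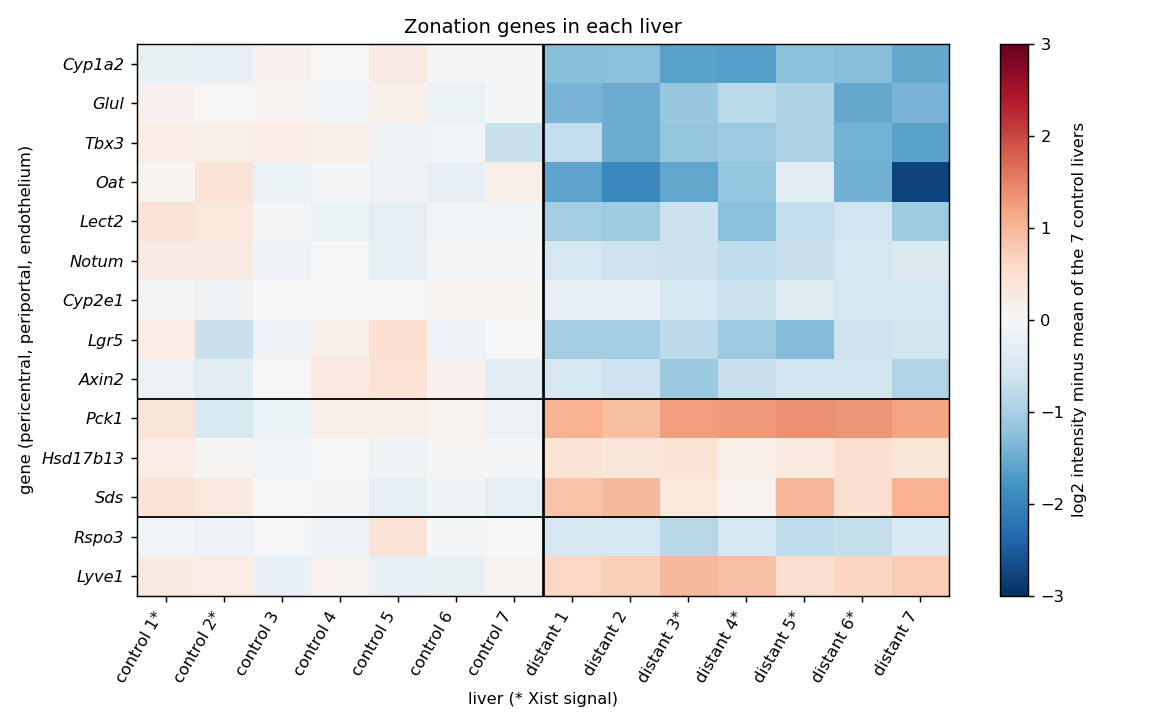
Log2 intensity of zonal and endothelial genes in each of 14 livers, minus the mean of the 7 control livers, with an asterisk on livers with Xist signal. The 9 pericentral genes (Cyp1a2, Glul, Tbx3, Oat, Lect2, Notum, Cyp2e1, Lgr5 and Axin2) lie below that mean in all 7 distant livers, and Pck1 lies above it in all 7.

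Of 23 genes of fatty acid synthesis and storage, 11 rose and 0 fell (median difference 0.44), though the count was 3 without control livers 5 and 7 and 3 within the livers with Xist signal, with 7 higher and 1 lower within the others. Scd1, which puts the double bond into stearate, ran from 5.64 to 6.03 (median 5.74) in control and from 6.19 to 6.34 (median 6.26) in distant livers (difference 0.44, SE 0.07, adjusted p = 0.000921), with no overlap. Pnpla3, a lipid droplet hydrolase induced by feeding, ran from −3.13 to 0.49 (median −2.06) in control and from −0.75 to 2.58 (median 1.55) in distant livers (difference 2.92, SE 0.55, adjusted p = 0.0038). Control livers 1 and 2, at −0.90 and 0.49, reached into the distant range, and within either Xist state the difference was 2.26 and 2.34. Fasn, fatty acid synthase, rose by 0.80, Acacb, an acetyl-CoA carboxylase that restrains oxidation, by 0.83, and Cd36, a fatty acid uptake receptor, by 1.29. Of 24 genes of fatty acid oxidation, 0 rose and 6 fell: Cpt2, the inner-membrane carnitine transferase, by 0.39, Acot1, a PPARA-induced thioesterase, by 1.14, and Ehhadh, of the peroxisome, by 0.38. Cpt2 did not overlap between groups, whereas Acot1 and Ehhadh did. Of the 24, 4 were lower within the livers with Xist signal and 0 within the others. Cpt2 was called in neither state, and Acot1 and Ehhadh were called only in the former.

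Among 20 apolipoprotein and lipoprotein assembly genes 5 rose and 0 fell. Apoa4, an apolipoprotein of intestine and liver, ran from 2.93 to 3.78 (median 3.35) in control and from 4.47 to 5.72 (median 5.26) in distant livers (difference 1.89, SE 0.19, adjusted p = 6.44e-06). Lpl, lipoprotein lipase, which adult hepatocytes normally hold at a low level, ran from 0.76 to 1.80 (median 1.34) in control and from 2.29 to 3.77 (median 2.91) in distant livers (difference 1.68, SE 0.20, adjusted p = 4.89e-05). Both were without overlap, and Lpl averaged 1.5 in LAP-tTA livers, within control. Cholesterol synthesis had 0 of 18 higher and 2 lower (11.1%), and glycolysis and glucose production 3 of 17 higher (17.6%) and 0 lower. Amino acid catabolism had 2 higher and 2 lower of 24 (8.33% each). Of the genes of thyroid hormone signaling 1 of 11 rose and 1 fell (9.09% each), the latter Dio1, which activates thyroid hormone, by 0.98. Of all named genes 3.33% were higher and 3.51% lower.

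Detoxification genes that were called were mostly lower. Of 29 P450 genes and regulators, 1 rose (Cyp3a13) and 10 fell. Cyp2b10, the classic target of the nuclear receptor CAR, ran from 0.29 to 2.63 (median 2.04) in control and from −0.99 to 0.53 (median −0.73) in distant livers (difference −2.29, SE 0.32, adjusted p = 0.000296), and of the distant livers number 5 alone, at 0.53, lay above the lowest control, number 5. Nr1i3, which encodes CAR, ran from 1.91 to 3.0 (median 2.26) in control and from 0.97 to 1.82 (median 1.52) in distant livers (difference −0.88, SE 0.15, adjusted p = 0.0014). Cyp2c54, of the CYP2C family, fell by 0.83. Of 16 conjugation enzymes 5 fell and 0 rose, including Tpmt, thiopurine methyltransferase, by 0.53, Ugt2b34, a glucuronosyltransferase, by 0.37, and Sult5a1. Of 21 glutathione and NRF2 genes 5 fell and 0 rose: Gsta2 and Gsta4, glutathione transferases, by 1.02 and by 0.70, and Gclc, the rate-limiting enzyme of glutathione synthesis, by 0.81. Of the 21, 1 was lower within the livers with Xist signal and 6 within the others.

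Bile acid genes fell as well, 8 of 20 with 0 higher. Abcc3, the export pump to blood, ran from 2.47 to 3.57 (median 2.53) in control and from 1.04 to 1.94 (median 1.46) in distant livers (difference −1.22, SE 0.17, adjusted p = 0.000262), and control liver 1 stood above the others. Abcb4, the canalicular phospholipid flippase, ran from 3.12 to 3.64 (median 3.24) in control and from 2.66 to 2.90 (median 2.73) in distant livers (difference −0.55, SE 0.08, adjusted p = 0.000695). Abcg8, a component of the sterol exporter, fell by 0.67, Slco1b2, an uptake carrier, by 0.51, and Nr0b2, the repressor SHP that bile acids induce, by 0.98. Cyp7b1 and Slco1a1 also counted, but both are male-biased genes: Cyp7b1 fell by 2.98 (adjusted p = 0.0409) with control liver values from −1.86 to 2.73, and within the Xist states by 1.96 and by 1.97.

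**Figure D3:**
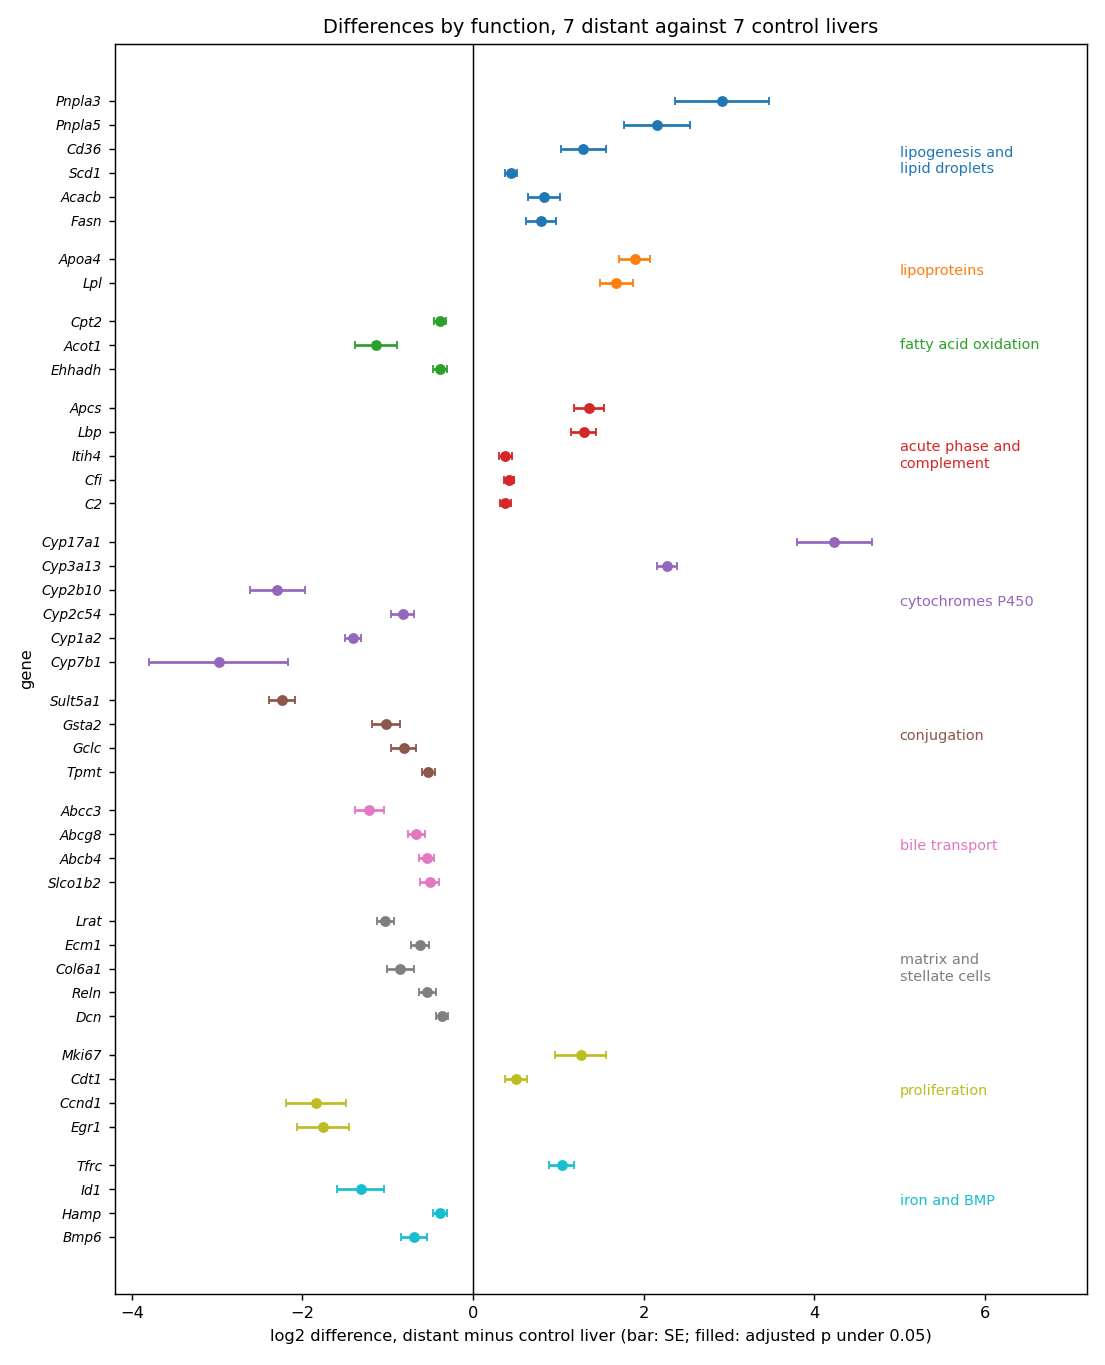
Difference between distant and control liver on the log2 scale for genes grouped by function, with the standard error as the bar. Lipid synthesis, lipoprotein and acute phase genes lie above 0 (Apoa4 1.89, Apcs 1.36) and most detoxification and transport genes below it (Cyp2b10 −2.29, Abcc3 −1.22).

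Of 26 stellate cell and matrix genes measured, 10 fell and 0 rose, with a median of −0.25, and the mean of 5 defining markers lay at 0.23 to 0.58 in control and −0.21 to 0.03 in distant livers. Lrat, which stores retinol in stellate cells, ran from 0.18 to 0.78 (median 0.47) in control and from −0.74 to −0.31 (median −0.54) in distant livers (difference −1.03, SE 0.10, adjusted p = 5.57e-06), with no overlap. Col6a1, a collagen of connective tissue, ran from −1.76 to −1.27 (median −1.56) in control and from −2.77 to −1.67 (median −2.52) in distant livers (difference −0.85, SE 0.16, adjusted p = 0.0029). Reln and Ecm1, secreted proteins that stellate cells make in mouse, fell by 0.54 and by 0.62, Dcn, the proteoglycan decorin, by 0.36, and Loxl1, which crosslinks elastin, by 0.54. Reln did not run with Lrat in the tumors, where Reln was at 3.19 to 4.73 and Lrat at −3.09 to −1.24. Whether the lower Reln came from stellate cells was not tested. Col1a2, a chain of collagen I, fell by 0.80 and Pdgfrb, the stellate PDGF receptor, by 0.46, while Col1a1 was not called (−0.52, adjusted p = 0.1). A dimmer probe set of Col1a2 was not called either (−0.42, limma adjusted p = 0.203). Within the livers with Xist signal 12 of 26 were lower and within the others 2.

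Acute phase genes rose in 10 of 23, and Hamp, the iron hormone hepcidin, was the 1 that fell. Lbp, which binds bacterial lipopolysaccharide, ran from 2.27 to 3.13 (median 2.35) in control and from 3.37 to 4.15 (median 3.91) in distant livers (difference 1.30, SE 0.14, adjusted p = 2.49e-05). It averaged 4.07 in LAP-tTA livers, in the distant range. Apcs, serum amyloid P, ran from 3.75 to 4.47 (median 4.04) in control and from 4.65 to 5.77 (median 5.66) in distant livers (difference 1.36, SE 0.17, adjusted p = 0.000124). Itih4, an acute phase protein, rose by 0.38, and Saa1, a serum amyloid A, was not called (0.68, adjusted p = 0.605). Lcn2, lipocalin, ran from −1.98 to −0.70 (median −1.27) in control and from −2.64 to 3.61 (median 2.55) in distant livers and just missed the threshold (difference 2.75, SE 0.79, adjusted p = 0.0526). In 5 distant livers it was at 2.04 to 3.61, and in distant livers 2 and 7 at −2.64 and −1.61. Of 38 complement and coagulation genes 9 rose and 0 fell, among them Cfi, the protease that inactivates C3b and C4b, by 0.42, C2 by 0.38, and Fgb, the fibrinogen beta chain, by 0.28. Acute phase genes were higher in 5 within the livers with Xist signal and 2 within the others, and complement and coagulation genes in 3 and 0.

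Neutrophil markers rose in 3 of 12. S100a8, a calcium-binding protein of neutrophils, ran from −2.33 to −2.14 (median −2.22) in control and from −1.80 to 0.22 (median −1.31) in distant livers (difference 1.28, SE 0.24, adjusted p = 0.0033). S100a9, its partner, ran from −2.18 to −1.40 (median −1.61) in control and from −1.29 to 0.29 (median −0.73) in distant livers (difference 1.11, SE 0.19, adjusted p = 0.002). Ltf, lactoferrin, rose by 0.27, a call lost when any 1 of 10 livers was left out (adjusted p up to 0.0941). Of the 5 defining markers 3 were called, and Ngp and Camp were not. Ngp ran from −2.84 to −2.54 in control and from −3.08 to −2.33 in distant livers. Camp ran from −4.41 to −4.13 in control and from −4.59 to −4.24 in distant livers. The mean of the 5 neutrophil markers ran from −2.77 to −2.55 in control and from −2.42 to −1.68 in distant livers, both low. The part of these cells in the higher Prtn3 was not tested. Kupffer cell and macrophage genes were called in both directions, 3 of 23 higher and 2 lower, with Spp1, osteopontin, which bile ducts also make, down by 1.31, Cd9, a tetraspanin, up by 0.62 and Lyz2, lysozyme, up by 0.50. The Lyz2 call was lost when any 1 of 5 livers was left out. No defining Kupffer cell marker was called, and none of T and B cells.

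Antigen presentation genes fell in 6 of 15 and rose in 1, although 0 fell within the livers with Xist signal and 6 within the others. H2-Eb1, a class II chain, ran from −1.71 to −1.06 (median −1.32) in control and from −2.09 to −1.55 (median −1.82) in distant livers (difference −0.53, SE 0.10, adjusted p = 0.005). H2-DMb1, which loads class II, fell by 0.88, H2-Ab1, another class II chain, by 1.06 and Cd74, the invariant chain, by 0.83, and the latter 2 calls were lost when any 1 of 3 and any 1 of 11 livers was left out. In LAP-tTA livers of 7 weeks H2-Eb1, H2-DMb1, H2-Ab1 and Cd74 all lay below every control liver. Cd74 was at 1.37 to 1.65 there and H2-Ab1 at −0.74 to −0.22. Interferon-stimulated genes rose in 2 of 27 (7.41%, against 3.33% of all named genes): Ifi27, by 0.71, and Rsad2, an antiviral enzyme, by 0.57. The Rsad2 call was lost when any 1 of 9 livers was left out. Within the livers with Xist signal 7 of the 27 were higher and 0 lower (median 0.35), and within the others 0 were higher and 3 lower (median −0.19). Of 15 p53 and apoptosis genes 4 rose, among them Fas, the death receptor, by 0.35, with 1 higher in either Xist state.

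**Figure D4:**
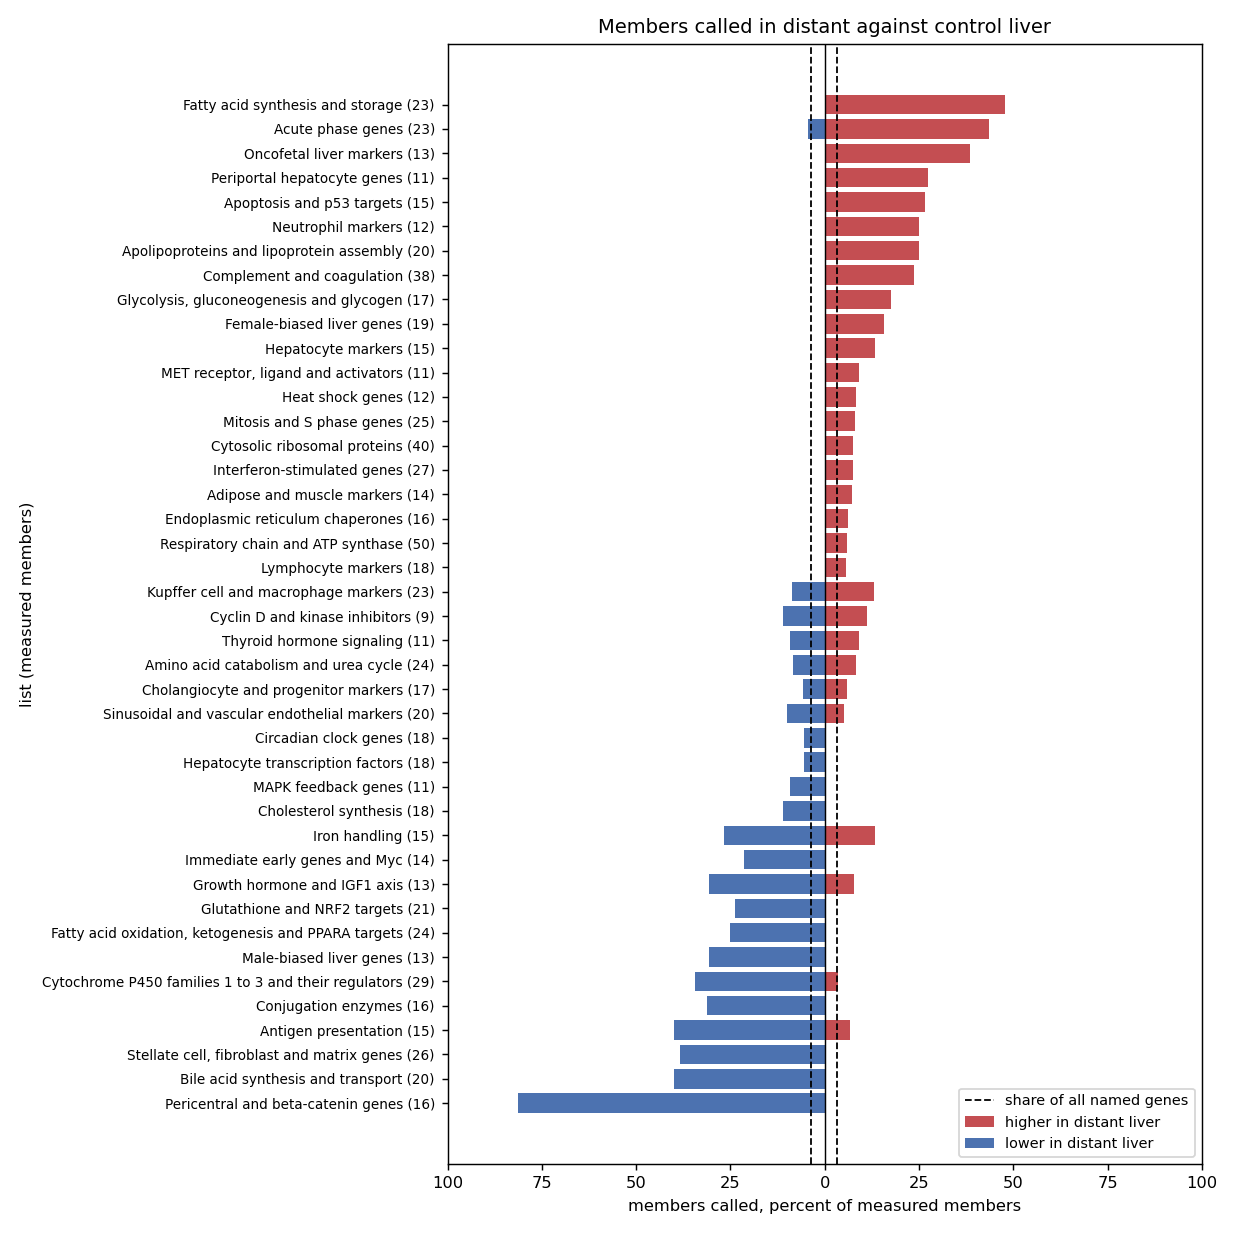
Share of the measured members of each list that were called higher (right) or lower (left) in distant than in control liver, in percent, with the number measured in brackets and the share among all named genes as dashed lines (3.33% and 3.51%). The pericentral list had 13 of 16 members lower and the list of fatty acid synthesis and storage 11 of 23 higher.

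Oncofetal genes, a list chosen like the others with earlier results of these data known, rose in 5 of 13 with 0 lower. Of these 5, 3 are the leading Tff3, Cyp17a1 and Igf2, so the count is not separate support for them. In the tumors these 3 averaged 0.20, −0.29 and −1.24, below the distant means of 2.64, 2.83 and 0.36 (paired limma adjusted p at most 0.001). Afp, alpha-fetoprotein, ran from −3.70 to −2.73 (median −3.37) in control and from −2.25 to −0.79 (median −1.29) in distant livers (difference 1.87, SE 0.21, adjusted p = 3.75e-05). The groups did not overlap, and the tumors averaged 4.60, above distant liver (paired limma adjusted p = 4.06e-08). Ly6d, a surface protein of the Ly6 family, rose by 1.48, and was at 3.71 to 5.43 in tumors against −2.45 to −0.10 in distant livers. The proliferation genes gave 2 of 25 higher (8%, against 3.33% of all named genes). Mki67, the marker of cycling cells, ran from −3.86 to −3.31 (median −3.60) in control and from −3.62 to −0.73 (median −2.22) in distant livers (difference 1.26, SE 0.29, adjusted p = 0.0171), with distant livers 2 and 7 lowest. Cdt1, which licenses DNA replication, rose by 0.50, a call lost when any 1 of 4 livers was left out (adjusted p up to 0.0614). Without control livers 5 and 7, 0 of the 25 were called by limma. Ccnd1, cyclin D1, went the other way and ran from 1.67 to 3.34 (median 2.36) in control and from −0.64 to 1.72 (median 1.02) in distant livers (difference −1.84, SE 0.35, adjusted p = 0.004). Cdkn2b, an inhibitor of its kinases, ran from −3.64 to −3.14 (median −3.58) in control and from −2.95 to −1.97 (median −2.90) in distant livers (difference 0.87, SE 0.15, adjusted p = 0.0024). In LAP-tTA livers of 7 weeks Ccnd1 was at 0.16 to 0.64, below every control liver and within the distant range. Afp, at −3.56 to −2.87 there, lay within the control range, and Cdkn2b, at −3.59 to −3.09, lay close to it.

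Of 11 MAPK feedback genes Spred2, an inhibitor of RAF activation, fell by 0.39 and was the only one called (9.09%, against 3.51% of all named genes). Dusp6, the ERK phosphatase, was at −0.51 (adjusted p = 0.174) and Spry4 at −0.35 (adjusted p = 0.121). With the Xist state as a term Dusp6 was called (−0.72, adjusted p = 0.000714), and it was called within either state. Of 14 immediate early genes 3 fell and 0 rose. Egr1, a transcription factor induced within minutes of growth factor signals, ran from 0.40 to 2.51 (median 1.26) in control and from −1.14 to 0.53 (median −0.53) in distant livers (difference −1.76, SE 0.31, adjusted p = 0.0021). Zfp36, which destabilizes cytokine mRNA, fell by 0.62, Junb by 0.61 (lost when any 1 of 4 livers was left out) and Fos was at −0.96 (adjusted p = 0.109). With the Xist state as a term Fos was called (−1.15, adjusted p = 0.0313), and of the immediate early genes 0 were called by limma within the livers with Xist signal and 4 fell within the others. Egr1 averaged −2.98 in LAP-tTA livers, below distant liver. The endoplasmic reticulum gene Edem1 rose by 0.35, 1 of 16 of its list (6.25%), and the chaperone Hspa8 by 0.51, 1 of 12 (8.33%). The share of all named genes was 3.33%. Other probe sets of Edem1 were not called (0.07 and −0.03, limma adjusted p = 0.687 and 0.895). Serine synthesis and integrated stress response genes had 0 of 16 called by limma. Of 50 respiratory chain genes 3 rose, among them Cox7c by 0.51, a share near the 3.33% of all named genes, with a median of −0.03 and 32 of 50 below 0. Ribosomal protein genes rose in 3 of 40 (7.5%, against 3.33% of all named genes), among them Rps9 by 0.37 and Rpl3 by 0.38. Within either Xist state 0 of 40 were called by limma.

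Iron and BMP genes fell in 4 of 15 and rose in 2. Tfrc, the transferrin receptor, ran from −0.59 to 0.11 (median −0.49) in control and from 0.32 to 1.21 (median 0.67) in distant livers (difference 1.04, SE 0.15, adjusted p = 0.000267). Hamp ran from 6.26 to 6.39 (median 6.32) in control and from 5.66 to 6.23 (median 5.89) in distant livers (difference −0.38, SE 0.08, adjusted p = 0.0098). Id1, a direct target of BMP signaling, ran from 1.36 to 2.41 (median 2.0) in control and from −0.43 to 1.92 (median 0.57) in distant livers (difference −1.32, SE 0.28, adjusted p = 0.0084), and distant liver 5, at 1.92, was the only distant liver near the control median. Bmp6, the endothelial BMP that induces hepcidin, fell by 0.70, and Slc39a14, an iron and zinc importer, rose by 0.81. Smad7, the inhibitor of this signaling, fell by 0.68, lost when any 1 of 9 livers was left out (adjusted p up to 0.0708). In LAP-tTA livers of 7 weeks Tfrc was at 0.62 to 1.35, above every control liver. Hamp (6.0 to 6.12), Id1 (−1.03 to 0.09) and Bmp6 (−2.69 to −2.23) lay below every control liver there. Slc39a14 (2.29 to 2.63) and Smad7 (−0.49 to 0.07) overlapped the controls. Within the livers with Xist signal 0 of the 15 were called lower by limma (adjusted p = 0.357 for Hamp, 0.323 for Id1 and 0.393 for Bmp6), and within the others 3 fell.

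Levels of sex-biased and clock genes ran with the Xist state, which held unequal numbers of distant and control livers. Male-biased genes were lower in 4 of 13 and female-biased genes higher in 3 of 19. Within the livers with Xist signal 1 male-biased gene was higher and 1 lower, and 3 female-biased genes were higher and 5 lower, with the female-biased median at −0.25 against 1.51 over all 14 livers. Within the others 7 male-biased genes were lower and 5 female-biased genes higher. Elovl3, an elongase of very long fatty acids, ran from −2.64 to 2.73 (median 2.31) in control and from −3.57 to 0.17 (median −2.59) in distant livers (difference −3.17, SE 0.86, adjusted p = 0.0403). Control livers 1 and 2, at −2.60 and −2.64, lay with the distant livers. Ugt2b38, a glucuronosyltransferase, fell by 3.03 and Slco1a1, an organic anion carrier, by 1.06. Elovl3, Ugt2b38, Cyp7b1 and Slco1a1 lost their calls when any 1 of 10, 10, 9 and 9 livers was left out. Hsd3b5, a male-specific steroid enzyme, was not called (−3.37, adjusted p = 0.261) but was called with the Xist state as a term (adjusted p = 0.000813). Fmo2 and Fmo4, flavin monooxygenases, rose by 1.89 and by 1.19, and the Fmo2 call was lost when any 1 of 9 livers was left out. Of 13 growth hormone and IGF1 genes 4 fell and 1 rose: Igfbp3, which carries IGF1, by 0.90, Ghr, the growth hormone receptor, by 0.35, Igfbp2 by 0.51 and Bcl6, a growth hormone-repressed factor, by 1.44, while Socs2, a growth hormone-induced inhibitor, rose by 1.13. Bcl6 and Socs2 lost their calls when any 1 of 6 and any 1 of 10 livers was left out. A dimmer probe set of Ghr was not called (−0.22, limma adjusted p = 0.304). The clock repressor Nr1d1 ran from 0.21 to 1.28 (median 1.09) in control and from −0.51 to 0.42 (median −0.02) in distant livers (difference −1.07, SE 0.17, adjusted p = 0.00068). It was the only one of 18 clock genes called (5.56%, against 3.51% of all named genes lower), and Per1 was at 0.42 (adjusted p = 0.0507). Within the livers with Xist signal 0 of the 18 were called by limma (adjusted p = 0.0883 for Nr1d1). Within the others 1 rose and 1 fell, so clock levels also differed between the groups inside that state. There the clock gene Dbp ran from 0.22 to 0.73 in control and from 0.78 to 2.27 in distant livers. Per2 ran from −1.28 to −0.80 and from −0.68 to 0.10.

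**Figure D5:**
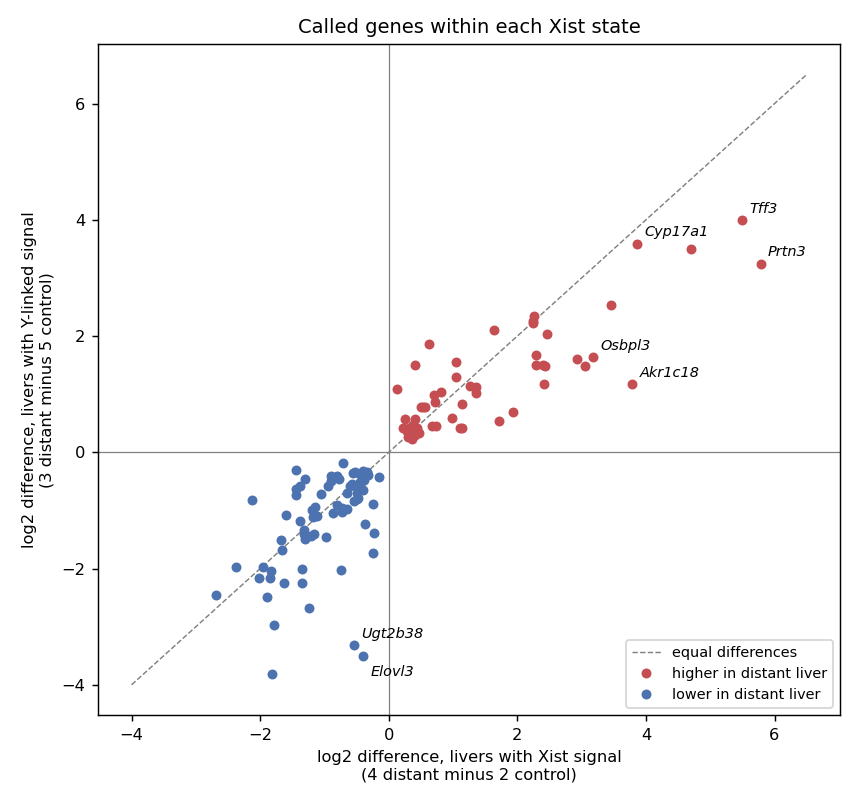
Difference between distant and control liver on the log2 scale for the genes named here that were called, within livers with Xist signal (horizontal) and with Y-linked signal (vertical), with a dashed line for equal differences. All points lie in the quadrants of equal sign, which the choice of genes called in these same livers favors. Elovl3 (−0.40 against −3.51) and Akr1c18 (3.78 against 1.17) lie off the line.

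Distant liver was also set against the other tissues of the same mice. Against adjacent liver, with the mouse as a block, 0 of 43681 probe sets were called by limma (0.00% of named genes), with 5824 at an unadjusted p under 0.05, and 0 after quantile normalization and 0 without the block (4334 and 4252 at that p). The absence of calls does not show these tissues to be equal. Adjacent liver 4 stood apart, with Glul at 5.35 and Afp at 3.15 against 2.57 to 3.47 and −2.01 to −0.24 in the other adjacent livers. Its effect on this fit was not tested. Against the tumors of the same mice 11629 probe sets were called, and 7111 named genes (33.0%), 3348 higher (15.6%) and 3763 lower (17.5%) in distant liver. Of the 30 leading genes of distant against control liver, 23 also differed between distant liver and tumors. The pericentral genes lay on opposite sides, with the distant mean below and the tumor mean above the control mean (the latter not tested here) for Glul, Tbx3, Lect2, Axin2, Lgr5 and Slc1a2, whose tumor mean was 4.72. Pck1 averaged 0.09 in tumors against 4.38 to 4.86 in distant livers.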

How the data were processed

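Total RNA from mouse liver was hybridized as biotin-labelled cRNA to a custom Affymetrix array. The authors processed the arrays with RMA and deposited linear intensities, which average 1.0 within each sample. The RMA version, the build behind the probes and the step to that average are not given in the sources used here. Log2 of the deposited intensity was taken with no constant and no filter. The platform annotation gave 1 symbol to 30342 of 43681 probe sets, several to 0 and no symbol to 13339. RefSeq synonyms replaced 6202 symbols (GRCm38.p6, used for names and promoters), giving 21517 genes. For 6081 genes with several probe sets the brightest over the 49 samples was read. Among 138 genes of the text 33 had several. Of their 49 other probe sets 45 had the same direction, 29 were called in it and 1 was called in the opposite one.

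The 7 distant and 7 control livers entered a linear model per probe set (limma 3.58.1 under R 4.3.3, functions lmFit and eBayes), with two-sided p-values adjusted by Benjamini-Hochberg over all probe sets, and this step was tested on simulated data. Tests against adjacent liver and against the mean of both tumors used the mouse as a block, since equal numbers there mark 1 mouse. Centred on its group, distant liver correlated with adjacent liver of its number at 0.364 to 0.595 and with tumors at 0.125 to 0.384. Met was also tested by exact permutation over 3432 splits. Python 3.11.15, numpy 2.4.6, pandas 2.3.3 and matplotlib 3.10.9 did the rest.

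Named are the 15 largest increases and 15 largest decreases among called genes without overlap of the groups, the 5 or fewer members of each gene list with the smallest p, its defining cell markers and the genes that the paper names. Lgr5, Axin2, Rnf43, Znrf3, Nkd1, Rhbg, Tcf7, Slc1a2, Sp5, Hsd3b5, Smad7, Cd74, Col1a2, Pdgfrb, Saa1, Xist, Eif2s3y, Arntl, Dbp, Per2 and the genes of the closing observations were named after their values were seen. The comparison, its members and the lists were chosen with earlier results of these data known. The Xist states, and the fit without control livers 5 and 7, were chosen after seeing the data. Other alternatives were thresholds, a filter on dim probe sets, normalization, an added constant, all groups in 1 fit, array weights, the replicate number as a block, 1 probe set per gene, the methods' ANOVA and each liver left out in turn.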

Additional observations from a re-analysis of the deposited data

Results flagged for a closer look

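Of 276 groups of 7 values examined for the genes named above, 12 held a highest or lowest liver that stood apart from the other 6 by a Dixon test, where chance marks about 1 in 20. Among control livers, number 5 was low for Akr1c18 (−3.17) and Igf2 (−2.58) and high for Rspo3 (−0.33) and Sp5 (−2.05). Control liver 1 was high for Abcc3 (3.57), Lbp (3.13) and Lyz2 (1.98). Control liver 2 was low for Nr1d1 (0.21), S100a9 (−2.18) and Smad7 (−0.50), and control liver 7 was low for Tbx3 (−1.97). Distant liver 4 was high for Cdt1 (−1.31), with the other distant livers at −2.01 to −1.77.

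The difference between distant and control liver was itself different between the Xist states for 2 of these genes, by the interaction term of the limma fit. Akr1c18 differed by 3.78 within the livers with Xist signal and by 1.17 within the others, an interaction of −2.61 (adjusted p = 0.00284). Elovl3 differed by −0.40 and −3.51, an interaction of −3.11 (adjusted p = 0.0281). The livers with Xist signal include only 2 controls.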

How the results depend on the processing

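The settings reused the livers in which genes were called, which favors a kept direction. All 130 called genes named above kept their direction in each of 27 settings, and 114 stayed called whichever 1 liver was left out. The other 16 lost the call without 1 liver, at adjusted p up to 0.078 for Bcl6, 0.098 Cd74, 0.0614 Cdt1, 0.0928 Cyp7b1, 0.0896 Elovl3, 0.0774 Fmo2, 0.0532 H2-Ab1, 0.0615 Junb, 0.0941 Ltf, 0.0592 Lyz2, 0.1 Rsad2, 0.109 Slco1a1, 0.0708 Smad7, 0.104 Socs2, 0.083 Ugt2b38 and 0.102 Wnt2. Of the 130, 59 lost the call within the livers with Xist signal (among them Lgr5, Axin2, Hgfac, Cyp2e1, Scd1 and Hamp), 37 within the others (among them Igf2, Fasn, Mki67 and Hamp), 23 without control livers 5 and 7 (among them Mki67, Fasn, Acacb, Cd36 and Ghr) and 3 with the Xist state as a term (Rsad2, Socs2 and Wnt2). Over all 1471 called genes, 906 (61.6%) stayed called under every such omission. Against 2212 calls (1077 higher, 1135 lower), leaving out 1 liver gave 1509 to 2555 (753 to 1225 higher, 756 to 1350 lower), with 756 lower without distant liver 6. An adjusted p under 0.01 gave 874 (448 and 426), an unadjusted p under 0.01 3780 (1804 and 1976) and the methods' ANOVA at that p 3512 (1657 and 1855), or 1668 after Benjamini-Hochberg. Livers with Xist signal gave 1047 (528 and 519), the others 871 (458 and 413), and without control livers 5 and 7 there were 1307 (618 and 689). The replicate number as a block gave 1567 (796 and 771), although numbers mark different mice in these groups, whose deviations correlated at −0.356 to 0.326. Other settings gave 1704 to 3174. Met turned to −0.0010 within the livers with Xist signal. List medians turned sign by more than the spread of the list's mean between livers there for sex chromosome (0.15), cholesterol synthesis (0.21) and thyroid (0.0727) genes, and within the others for respiratory chain (0.0501), interferon (−0.19), Kupffer cell (−0.18) and p53 (−0.0046) genes. By less than that spread they turned there for female-biased (1.51 to −0.25), acinar pancreas (−0.82 to 0.08), lymphocyte (−0.01 to 0.05) and cholangiocyte (−0.02 to 0.08) genes and the genes the paper names, and within the others for heat shock (−0.04 to 0.01) and iron (0.01 to −0.01) genes, without control livers 5 and 7 for heat shock (0.04) and acinar (0.01) genes, and with the Xist state as a term for heat shock (0.01) and MAPK feedback (−0.03 to 0.02) genes. The causes were not tested.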

Other observations

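The difference between distant and control liver differed between the Xist states at 51 named genes (0.237%, limma interaction), and the genes here were chosen after their values were seen. Mup2, a major urinary protein that carries pheromones, ran from 0.70 to 1.77 in distant and from 4.49 to 4.53 in control livers with Xist signal, a difference of −3.20 on the log2 scale, and differed by −0.37 among the others (interaction adjusted p = 9.21e-05). Ifi44, an interferon-induced gene, differed by 1.81 and −0.20 (interaction adjusted p = 0.0012), and Cd63, a tetraspanin of late endosomes, by 2.36 and −0.18 (interaction adjusted p = 0.0022). Asic5, an ion channel, went the other way, with 0.06 and 2.83 (interaction adjusted p = 9.21e-05). Slc41a2, a magnesium transporter, differed by 3.64 and 1.21, and Golm1, a Golgi membrane protein raised in serum in liver cancer, by 1.90 and 0.63, so that both were higher in distant liver in either state. Serpinb1a, an inhibitor of neutrophil proteases, differed by −3.09 and −0.60.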
